A study of Rattus norvegicus with 20 samples.

Results

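The 5 rat miRNAs rno-miR-23a-3p, rno-miR-23b-3p, rno-miR-24-3p, rno-miR-27a-3p and rno-miR-27b-3p, given below without the rat prefix, are the 3p arms made from a pair of paralogous rat gene clusters. They were taken by name from the 677 rat miRNAs on the array, as the probes whose systematic name is one of the 5. Each was among the 217 miRNAs tested, those that every array of 1 group or more detected. They are treated as selected on their signal levels by cell type, which were known from earlier results of these data, so differences between the cell types are described below with no test, and only the treatment comparisons were tested.

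The study measured miRNAs in male germ cells of Sprague-Dawley rats on 20 one-colour arrays labelled with Cy3. The 4 groups of 5 arrays were round spermatids (the haploid cells that follow meiosis) of cyclophosphamide (CPA) rats, round spermatids of saline rats, pachytene spermatocytes (cells in meiotic prophase) of CPA rats and pachytene spermatocytes of saline rats. CPA, an alkylating drug, was given by gavage at 6 mg/kg on 6 days a week for 4 weeks, and the control rats were gavaged with saline on the same schedule. Cells were sorted by sedimentation at unit gravity (the STA-PUT method), and the purity of the fractions is not given in the sources used here. Each array carries a rat number. If arrays of a group came from separate rats, which the labels imply but do not state, p-values reflect the spread between animals. In the CPA pachytene group the number 16 occurs for 2 arrays, of 2011 and of 2012, and other numbers recur across treatments and cell types. The rats were, in the order in which values are listed below, 14, 15, 16, 25 and 26 for CPA round spermatids, 15, 16, 17, 25 and 28 for saline round spermatids, 7, 15, 16 of 2011, 16 of 2012 and 29 for CPA pachytene spermatocytes, and 13, 16, 25, 26 and 28 for saline pachytene spermatocytes.

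A miRNA lowers the translation or stability of messages that pair with it, mainly through its seed, bases 2 to 8. In mammals the miR-23a, miR-27a and miR-24-2 genes lie next to each other and are transcribed as a single primary RNA, as are their paralogs miR-23b, miR-27b and miR-24-1. Members of both clusters are best known from endothelium, smooth muscle, blood and fat. In human cells miR-24 lowers H2AX, a histone variant of the response to DNA breaks, and miR-23a and miR-23b lower glutaminase, which feeds glutamine into metabolism. In mouse and human cells miR-27a and miR-27b hold back fat cell formation and act on the message of PPARG, a receptor that drives it.

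The mature sequences are shown because they set what the arrays can and cannot tell apart. They come from RefSeq's rat assembly GRCr8, in which all 5 names matched, with the seed in capitals, 5′ to 3′:
miR-23a-3p: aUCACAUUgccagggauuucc
miR-23b-3p: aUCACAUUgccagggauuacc
miR-24-3p: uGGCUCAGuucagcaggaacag
miR-27a-3p: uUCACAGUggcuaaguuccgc
miR-27b-3p: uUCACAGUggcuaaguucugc
The miR-23 pair shares 1 seed and the miR-27 pair another, so the 5 miRNAs have 3 distinct seeds. Each pair has the same first 18 bases and differs at 1 base near the 3′ end, which is U19A between miR-23a-3p and miR-23b-3p and C19U between miR-27a-3p and miR-27b-3p, counted from 1 at the 5′ end. miR-23 and miR-27 share bases 2 to 6, UCACA. Among the 694 mature rat miRNA names searched, 0 others carried a seed of these miRNAs. How much of the signal on a miR-23a-3p probe comes from miR-23b-3p, and likewise for the miR-27 pair, was not measured.

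miR-24-3p is made from both clusters, and its copies are identical over all 22 bases, so its signal is the sum of both genes. The hairpins are shown because they differ outside the 3p arm, in their 5p arms, loops and flanks, with the mature arms in capitals:
miR-24-1 hairpin: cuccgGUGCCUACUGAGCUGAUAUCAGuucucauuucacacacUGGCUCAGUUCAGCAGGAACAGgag
miR-24-2 hairpin: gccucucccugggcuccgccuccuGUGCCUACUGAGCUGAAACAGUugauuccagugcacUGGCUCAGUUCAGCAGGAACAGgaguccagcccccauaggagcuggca
In GRCr8 the miR-23a, miR-27a and miR-24-2 hairpins span 389 bases at chr19:40859455-40859843 on the minus strand, with no gene of the RefSeq table reaching over them. The miR-23b, miR-27b and miR-24-1 hairpins span 814 bases at chr17:1818669-1819482, also on the minus strand, within the protein-coding gene Aopep. The hairpin miR-24-1 has 68 bases and lies at chr17:1818669-1818736, and miR-24-2 has 108 bases and lies at chr19:40859455-40859562. The array headers name an older build, whose coordinates are not used here.

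Between 181 and 281 of the 677 miRNAs were detected per array, between 18.9% and 31.4% of spots were well above background, and no spot was saturated. All 100 spots per group of each of the 5 miRNAs, on 2 probes and 5 arrays, were well above background. Their values below come from the brighter probe of each. The other probe deviated together with it within the groups, at r between 0.93 and 0.96. In the deposited value table, whose names lack the arm, the 5 miRNAs correlated with the scanner values at an r of 0.99 each over the 20 arrays. With 5 arrays a group, that number sets the precision of what follows.

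All 5 miRNAs had more signal in round spermatids than in pachytene spermatocytes of the same treatment, at a median of 2.64 times in saline rats and 2.70 times in CPA rats. miR-23a-3p had log2 signals in round spermatids of 8.50, 8.20, 8.61, 8.53 and 7.83 in CPA rats, against 8.37, 8.68, 8.29, 8.95 and 8.49 in saline rats. Its log2 signals in pachytene spermatocytes were 6.96, 7.27, 6.79, 6.54 and 6.80 in CPA rats, against 6.72, 6.91, 7.67, 6.82 and 7.34 in saline rats. The treatments overlapped in both cell types, while every spermatid array lay above every pachytene array, by 0.17 on the log2 scale at the closest. The log2 difference between round spermatids and pachytene spermatocytes was 1.46 ± 0.19 (SE) in saline rats and 1.46 ± 0.19 in CPA rats.

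miR-23b-3p, its paralog on the other chromosome, had log2 signals in round spermatids of 8.31, 7.80, 8.55, 8.18 and 7.86 in CPA rats, against 8.11, 8.42, 7.99, 8.57 and 8.32 in saline rats. In pachytene spermatocytes miR-23b-3p stood at 6.89, 6.96, 6.66, 6.29 and 6.64 in CPA rats, against 6.81, 6.61, 7.23, 6.68 and 6.98 in saline rats. The lowest spermatid array and the highest pachytene array were 0.58 apart. Round spermatids exceeded pachytene spermatocytes by 1.42 ± 0.16 in saline rats and 1.45 ± 0.16 in CPA rats.

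miR-24-3p, the product of both clusters, had log2 signals in round spermatids of 8.30, 7.76, 8.27, 8.07 and 7.48 in CPA rats, against 7.93, 8.12, 7.75, 8.44 and 8.07 in saline rats. In pachytene spermatocytes miR-24-3p stood at 6.63, 6.91, 6.52, 6.21 and 6.47 in CPA rats, against 6.52, 6.48, 6.97, 6.53 and 6.81 in saline rats. The cell types were 0.51 apart at the closest, and the treatments overlapped. Round spermatids exceeded pachytene spermatocytes by 1.40 ± 0.17 in saline rats and 1.43 ± 0.17 in CPA rats.

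miR-27a-3p, which holds back fat cell formation, had log2 signals in round spermatids of 7.58, 7.37, 7.69, 7.36 and 6.77 in CPA rats, against 7.38, 7.05, 7.18, 7.72 and 7.43 in saline rats. In pachytene spermatocytes miR-27a-3p stood at 6.05, 6.41, 5.76, 5.54 and 5.83 in CPA rats, against 5.76, 5.99, 6.85, 5.79 and 6.27 in saline rats. Within each treatment the cell types did not overlap, but spermatids of CPA rat 26, at 6.77, lay below pachytene spermatocytes of saline rat 25, at 6.85. The difference between the cell types was 1.22 ± 0.22 in saline rats and 1.43 ± 0.22 in CPA rats.

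miR-27b-3p, the paralog of miR-27a-3p, had log2 signals in round spermatids of 7.65, 7.15, 7.82, 7.58 and 7.26 in CPA rats, against 7.40, 7.55, 7.32, 7.78 and 7.68 in saline rats. In pachytene spermatocytes miR-27b-3p stood at 6.33, 6.36, 6.16, 5.84 and 6.01 in CPA rats, against 6.21, 6.05, 6.36, 6.15 and 6.44 in saline rats. Its cell types were 0.71 apart at the closest, the widest gap of the 5 miRNAs, and its spread within groups ran from an SD of 0.16 to 0.28. Round spermatids exceeded pachytene spermatocytes by 1.30 ± 0.13 in saline rats and 1.35 ± 0.13 in CPA rats.

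**Figure D1:**
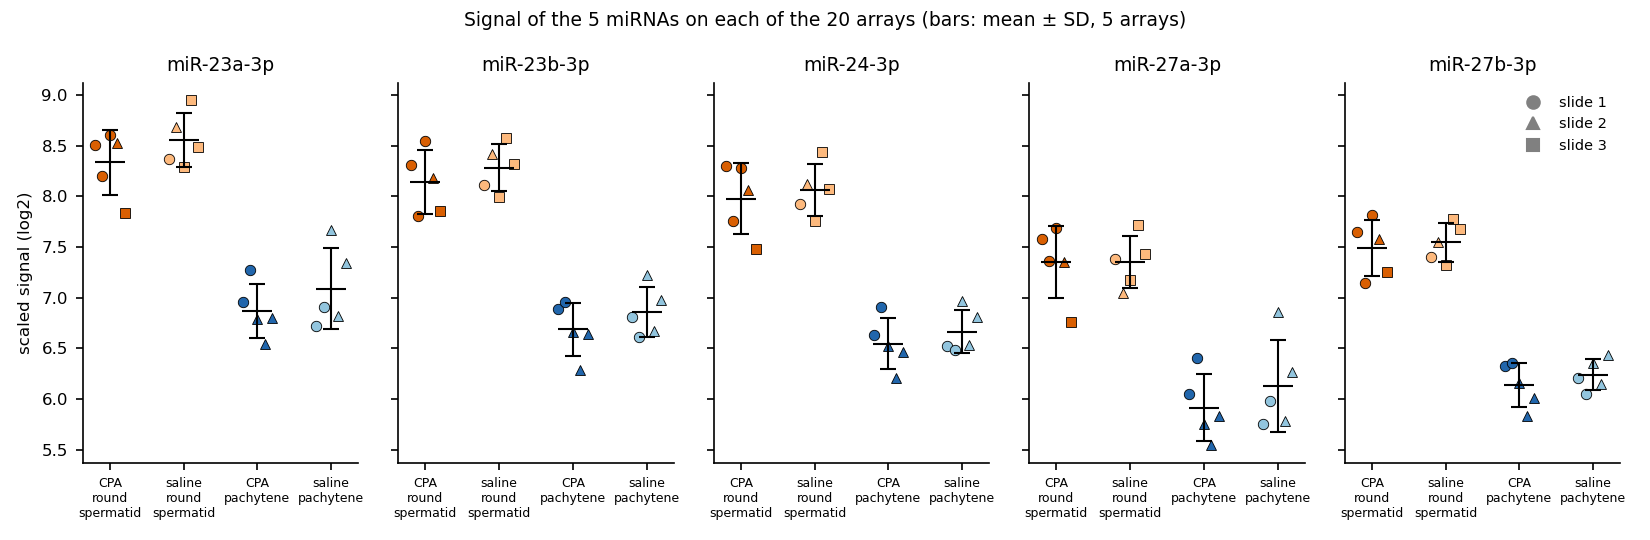
Scaled signal (log2) of each of the 5 miRNAs on every array, by group, with circles, triangles and squares for slides 1, 2 and 3 and black bars for mean ± SD (n = 5). The round spermatid arrays lie above the pachytene arrays of the same treatment in every panel, and CPA and saline arrays overlap within each cell type.

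In order of mean level, each miRNA except miR-27a-3p ran from saline round spermatids through CPA round spermatids and saline pachytene spermatocytes to CPA pachytene spermatocytes. For miR-27a-3p the CPA and saline round spermatids were level, at 7.35 ± 0.36 and 7.35 ± 0.26 (SD, n = 5 each). In every case CPA and saline groups of a cell type were neighbours in that order whose arrays overlapped. All 5 miRNAs were higher in round spermatids with no overlap between the cell types within either treatment, as were 18% of the 217 miRNAs in saline rats and 20.3% in CPA rats. limma called 56 miRNAs higher and 47 lower in round spermatids of saline rats and 64 higher and 49 lower in those of CPA rats, so 25.8% and 29.5% were called higher. Ranked from the highest difference, the 5 miRNAs held places 12, 14, 15, 16 and 18 of 217 in saline rats and 13 to 17 in CPA rats. Of the saline spermatid arrays 3 lay on slide 3, which holds no pachytene array. On slide 1 alone the 5 differences were 1.27 to 1.56 in saline rats and 1.20 to 1.34 in CPA rats. Slide 2 alone, with 1 spermatid array per treatment, gave 0.74 (miR-27a-3p) to 1.46 in saline rats. In CPA rats it gave 1.58 to 1.82. In a bulk sample, more signal from more cells of a type and from more RNA per cell cannot be told apart.

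The size of the cell type difference depended on the scaling between arrays and on the background correction. With the arrays scaled to their labelling spike-ins, synthetic RNAs added before labelling, the median of all 217 tested miRNAs shifted to -1.02 in saline rats and -0.50 in CPA rats, against 0.02 and 0.06 in the values above. On that scale the 5 miRNAs lay between -0.0012 (miR-27a-3p) and 0.24 in saline rats and between 0.64 and 0.75 in CPA rats. The spike-in readings (log10) of saline spermatid arrays were 3.31, 3.20 and 3.24 on slide 3, 3.04 on slide 1 and 3.05 on slide 2. CPA spermatid rat 26, on slide 3, read 3.17, and the other CPA spermatid arrays 2.92 to 3.16. Slide 3 holds no pachytene array, so slide and cell type cannot be told apart in its readings. Relative to the median over all miRNAs their median difference was 1.20 in saline rats and 1.22 in CPA rats with the spike-ins, against 1.38 and 1.38 with the percentile scaling. With the background corrected by normexp it was 0.61 in saline rats and 0.95 in CPA rats. The 5 differences then lay between 0.92 and 1.13 in saline rats and between 0.76 and 1.01 in CPA rats. The split of all calls turned with the scaling, to 4 higher and 157 lower in saline rats and 16 higher and 87 lower in CPA rats with the spike-ins. Without any scaling between arrays it was 21 and 67 in saline rats and 22 and 51 in CPA rats. With the percentile taken over all probes it was 37 and 77 in saline rats and 38 and 75 in CPA rats, with quantile normalization 42 and 58 in saline rats and 48 and 65 in CPA rats, and with the total gene signal 46 and 59 in saline rats and 56 and 53 in CPA rats.

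The first treatment comparison asked whether the 5 miRNAs of pachytene spermatocytes differ after chronic CPA. None of the 5 passed the test, and limma called 0% of the 217 miRNAs, with 1 at an unadjusted p under 0.05. The largest of their differences belonged to miR-23a-3p, with log2 signals of 6.87 ± 0.27 in CPA rats and 7.09 ± 0.40 in saline rats (SD, n = 5 each) and a difference of -0.22 ± 0.19 (SE, adjusted p of 1 by limma). The differences were -0.21 ± 0.22 for miR-27a-3p, -0.17 ± 0.16 for miR-23b-3p, -0.12 ± 0.17 for miR-24-3p and -0.10 ± 0.13 for miR-27b-3p, each with an adjusted p of 1 by limma. Their median was -0.17, where the median over all 217 miRNAs was 0.00, and 87 of the 217 had a difference below 0. The 95% intervals of the 5 miRNAs lay between -0.67 and 0.24, so with the percentile scaling a change of more than 1.59-fold is outside all of them. With the spike-in scaling that limit does not hold, since the 5 differences themselves lay between -0.56 and -0.44, where the median of all 217 was -0.30, and none of the 5 was called.

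The direction in pachytene spermatocytes differed between the slides on which the arrays were hybridised. On slide 1, with 2 CPA and 2 saline arrays, the differences of all 5 miRNAs were above 0, from 0.21 for miR-23b-3p and miR-27b-3p to 0.36 for miR-27a-3p. On slide 2, with 3 CPA and 3 saline arrays, all 5 were below 0, from -0.59 for miR-27a-3p to -0.32 for miR-27b-3p. The lowest adjusted p was 1 on slide 1 and 0.429 on slide 2 by limma. In the CPA group rat 15 had the highest and the rat 16 of 2012 the lowest signal for all 5 miRNAs, and in the saline group rat 25 was highest for 4 of them. Without saline rat 25 the 5 differences lay between -0.08 and -0.03, without the CPA rat 16 of 2012 between -0.14 and -0.03, and without CPA rat 15 between -0.34 and -0.16. Each stayed at an adjusted p of 1 by limma. With the background corrected by normexp instead, the 5 values lay between -0.03 and 0.16, where the median of all 217 was 0.34.

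The second comparison asked the same of round spermatids. None of the 5 miRNAs passed the test here either, where limma called 0% of the 217 miRNAs, with 4 at an unadjusted p under 0.05. miR-23a-3p averaged 8.33 ± 0.32 in CPA rats and 8.56 ± 0.26 in saline rats (SD, n = 5 each), a difference of -0.22 ± 0.19 (SE, adjusted p = 0.81 by limma). miR-23b-3p differed by -0.14 ± 0.16 (adjusted p = 0.868 by limma), miR-24-3p by -0.09 ± 0.17 (0.913), miR-27b-3p by -0.06 ± 0.13 (0.938) and miR-27a-3p by 0.00 ± 0.22 (adjusted p of 1). The median was -0.09 over the 5 miRNAs and 0.04 over all 217. Their 95% intervals lay between -0.63 and 0.46, within 1.55-fold in either direction with the percentile scaling. With the spike-in scaling that limit does not hold, since the spread was wider, as for miR-27a-3p at 0.17 ± 0.33 (SE).

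The slides differed in round spermatids as well. On slide 1, with 3 CPA arrays and 1 saline array, the differences of the 5 miRNAs lay between 0.06 and 0.18. On slide 2, with 1 array of each treatment, they lay between -0.23 for miR-23b-3p and 0.31 for miR-27a-3p. On slide 3, which holds only round spermatids, CPA rat 26 lay below the mean of 3 saline rats by between 0.34 and 0.74, the last for miR-23a-3p. Without CPA rat 26 the 5 differences lay between -0.10 and 0.15, without saline rat 25 between -0.12 and 0.09, without CPA rat 15 between -0.19 and 0.03, and without CPA rat 16 between -0.29 and -0.08. The lowest adjusted p on any slide was 0.554, and with any single array left out it was 0.57, both by limma. With the spike-in scaling the 5 values lay between -0.05 and 0.17, where the median of all 217 was 0.16.

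The third comparison was the difference between the CPA effects in round spermatids and in pachytene spermatocytes, tested directly. None of the 5 miRNAs passed it, where limma called 0% of the 217, with 1 at an unadjusted p under 0.05. miR-27a-3p had the largest value of the 5, 0.21 ± 0.31 (SE, adjusted p of 1 by limma), and it was 0.03 without saline pachytene rat 25 and 0.36 without CPA spermatid rat 26. The others lay between 0.00 for miR-23a-3p and 0.05 for miR-27b-3p, with an adjusted p of 1 each. These values depended on the scaling and the background correction. With the spike-ins the 5 lay between 0.51 and 0.72, where the median of all 217 was 0.47, and with normexp between -0.22 and -0.12, where it was -0.48, with none of the 5 called in either. The spike-in readings of saline spermatid arrays differed between slides, as given above. On slide 1 all 5 values were below 0, from -0.24 to -0.07, and on slide 2 all were above 0, from 0.20 to 0.90, with 0.357 as the lowest adjusted p by limma.

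**Figure D2:**
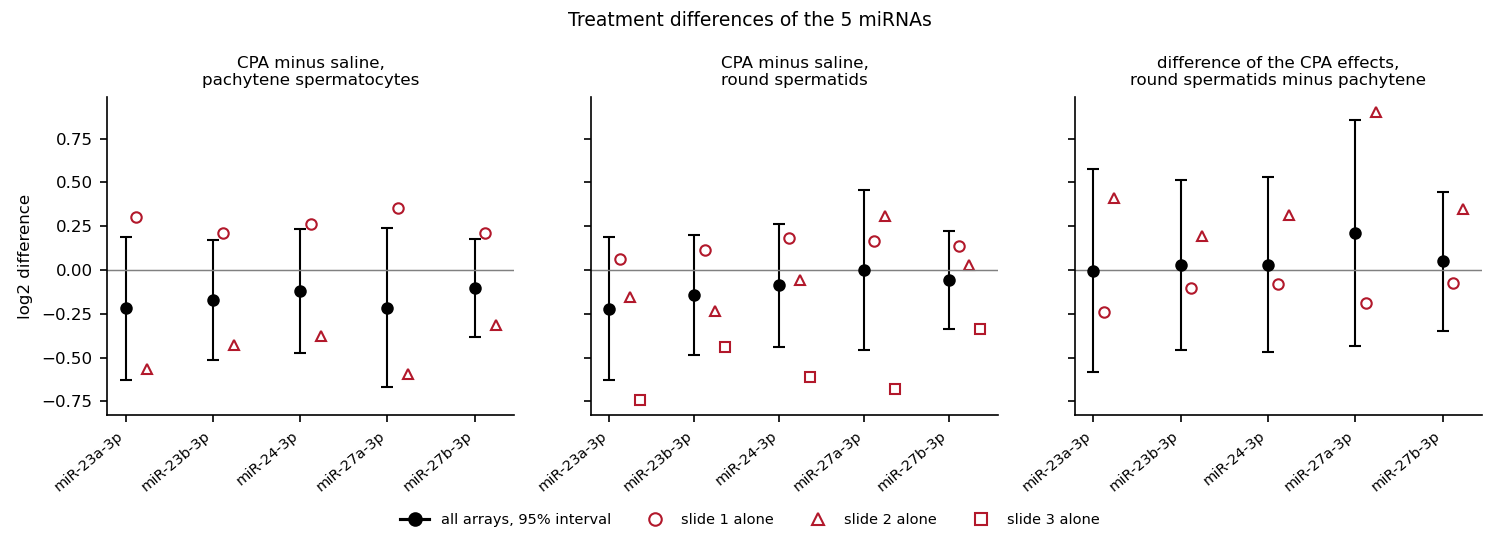
Log2 differences of the 5 miRNAs: CPA minus saline in pachytene cells, CPA minus saline in round spermatids, and the second of these minus the first. Black points are values over all arrays with 95% intervals, and open red symbols are values from the arrays of 1 slide alone. Every interval includes 0, and the values of slide 1 and slide 2 lie on opposite sides of 0 in the pachytene panel, at 0.21 to 0.36 and at -0.59 to -0.32.

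The ratio between paralogs compares products of the miR-23a cluster on chromosome 19 with those of the miR-23b cluster on chromosome 17. Since each miRNA is read by its own probe, a ratio is compared only between arrays, and its sign says nothing about which paralog is more abundant. The log2 ratio of miR-23a-3p to miR-23b-3p in round spermatids was 0.19, 0.40, 0.06, 0.34 and -0.02 in CPA rats, against 0.27, 0.27, 0.29, 0.37 and 0.17 in saline rats. In pachytene spermatocytes it was 0.07, 0.31, 0.13, 0.26 and 0.15 in CPA rats, against -0.09, 0.30, 0.44, 0.14 and 0.36 in saline rats. The treatments overlapped in both cell types. The difference between CPA and saline was -0.08 in round spermatids (exact p = 0.373) and -0.05 in pachytene spermatocytes (exact p = 0.659).

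The log2 ratio of miR-27a-3p to miR-27b-3p in round spermatids was -0.07, 0.22, -0.13, -0.23 and -0.49 in CPA rats, against -0.02, -0.50, -0.15, -0.06 and -0.25 in saline rats. In pachytene spermatocytes it was -0.28, 0.05, -0.40, -0.29 and -0.18 in CPA rats, against -0.45, -0.07, 0.49, -0.37 and -0.17 in saline rats. Saline pachytene rat 25 stood highest of all 20 arrays. CPA differed from saline by 0.06 in round spermatids (exact p = 0.73) and by -0.11 in pachytene spermatocytes (exact p = 0.643). The 4 exact two-sided permutation tests ran over 252 assignments each, the smallest p they can give is 0.00794, and adjusted over the 4 each p was 0.73. Within the slides the pachytene values were 0.088 on slide 1 and -0.14 on slide 2 for the miR-23 ratio, and 0.14 on slide 1 and -0.28 on slide 2 for the miR-27 ratio. The spermatid values of the miR-27 ratio were 0.027, 0.28 and -0.34 on slides 1, 2 and 3, and those of the miR-23 ratio -0.049, 0.077 and -0.30. Without saline rat 25 the pachytene value of the miR-27 ratio was 0.04, and without CPA rat 26 the spermatid value was 0.14. Between the cell types the mean miR-23 ratio differed by 0.04 in saline rats and 0.01 in CPA rats, and the mean miR-27 ratio by -0.08 and 0.08.

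With the group means taken off, the miR-23 and miR-27 ratios went together at r = 0.72 over the 20 arrays, at 0.79 over the 10 pachytene arrays and 0.63 over the 10 spermatid arrays. Without the 2 arrays farthest out, saline pachytene rats 13 and 25, r was 0.61. The single miRNAs also deviated together from their group means. The correlation was 0.90 between miR-23a-3p and miR-27a-3p and 0.94 between miR-23b-3p and miR-27b-3p, which share a cluster. It was 0.88 between miR-23a-3p and miR-23b-3p and 0.69 between miR-27a-3p and miR-27b-3p, which lie in different clusters. miR-24-3p, with a gene in each, stood at 0.93 with both miR-23 paralogs, 0.85 with miR-27a-3p and 0.90 with miR-27b-3p. On each of the 20 arrays the miRNAs share that array's scale factor, which cancels in the ratios, and its slide. No test was made of these correlations.

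**Figure D3:**
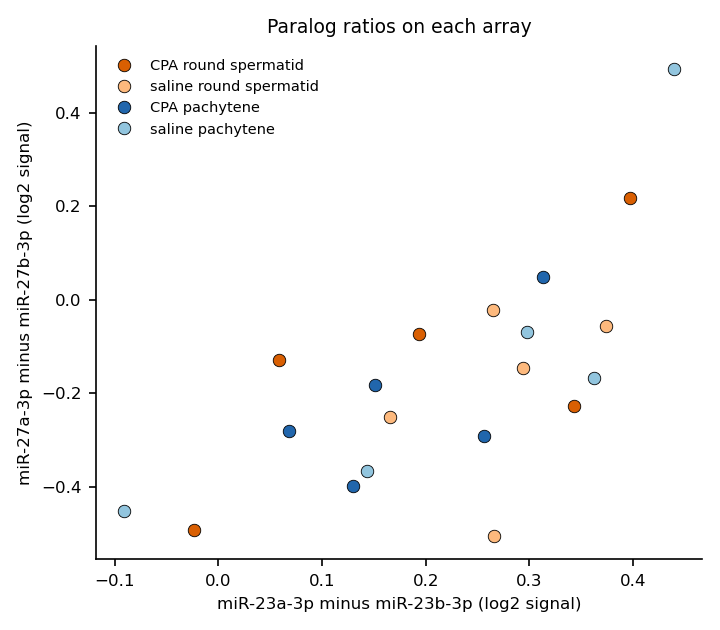
Log2 ratio of miR-27a-3p to miR-27b-3p against the log2 ratio of miR-23a-3p to miR-23b-3p, 1 point per array, coloured by group. Arrays with a higher miR-23 ratio tend to have a higher miR-27 ratio (r = 0.72 with group means taken off), and the groups overlap on both axes.

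The miRNAs most like the mean of these 5 were the same 5 by both measures used, the correlation over all 20 arrays and the correlation after the group means were taken off. They were miR-10b-5p, of the Hox gene clusters, miR-497-5p and miR-195-5p, which lie together and share the seed of miR-15 and miR-16, miR-143-3p, abundant in smooth muscle, and miR-130a-3p, known from blood and vessels. Over all arrays r lay between 0.97 and 0.99. With group means off it was 0.92 for miR-10b-5p, 0.88 for miR-497-5p, 0.86 for miR-143-3p, 0.86 for miR-195-5p and 0.77 for miR-130a-3p, where the median over 210 miRNAs compared was -0.04. miR-143-3p had a log2 signal of 11.20 ± 0.45 in CPA round spermatids and 11.31 ± 0.22 in saline round spermatids (SD, n = 5 each). In pachytene spermatocytes miR-143-3p had 9.20 ± 0.42 in CPA rats and 9.50 ± 0.41 in saline rats. The differences of these 5 miRNAs between round spermatids and pachytene spermatocytes ran from 1.06 for miR-130a-3p to 1.81 for miR-143-3p in saline rats. In CPA rats they were 1.18 for miR-130a-3p, 1.53 for miR-10b-5p, 1.61 for miR-195-5p and 1.89 for miR-497-5p, with miR-143-3p above these.

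Smooth muscle and mesenchyme markers differed between the cell types in the same direction as the 5 miRNAs. Of 7 smooth muscle and mesenchyme markers 6 were tested, and all 6 were called higher in round spermatids of both treatments by limma, at a median of 1.72 in saline rats and 1.76 in CPA rats. The summed signal of the 7 ran from 2020 to 3970 on CPA spermatid arrays and from 2519 to 3785 on saline spermatid arrays, and on pachytene arrays from 511.1 to 912.0 in CPA rats and from 660.8 to 1305 in saline rats. With group means off, this sum went with the sum of the 5 miRNAs at r = 0.89 over 20 arrays, at 0.88 over the 10 pachytene arrays and 0.91 over the 10 spermatid arrays. Most of the sum is miR-143-3p, with a log2 signal of 11.54 where the log2 sum was 11.84 for CPA spermatid rat 14. The r of the sum is therefore largely that of miR-143-3p, which alone stood at 0.86 with the mean of the 5 miRNAs. The list holds miR-143-3p and miR-10b-5p, which are also among the 5 most alike, and its miR-145-3p was detected on no array. Its median treatment difference was -0.14 in pachytene spermatocytes and -0.10 in round spermatids, with 0 of 6 called in either. Its part in the values of the miR-23, miR-24 and miR-27 miRNAs was not tested.

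**Figure D4:**
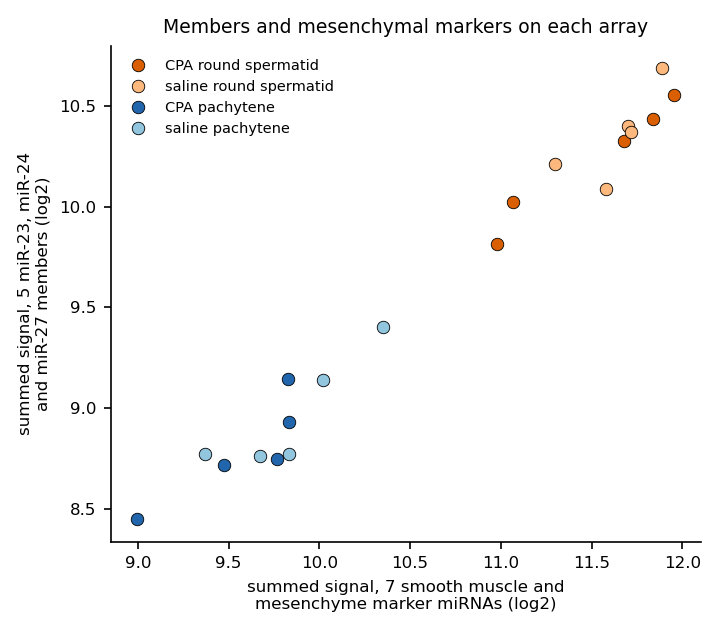
Summed signal (log2) of the 5 miRNAs against the summed signal (log2) of 7 smooth muscle and mesenchyme marker miRNAs, 1 point per array, coloured by group. Spermatid arrays hold the upper right and pachytene arrays the lower left, and within each cell type arrays with more marker signal have more signal of the 5 miRNAs (r = 0.89 with group means taken off).

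Other marker lists gave mixed counts. Both endothelial markers were tested, 0 called in saline rats and 1 called lower in round spermatids of CPA rats, with a median of -0.56 in saline rats and -0.45 in CPA rats between round spermatids and pachytene spermatocytes, and their sum went with the 5 miRNAs at r = 0.60, at 0.23 over the spermatid arrays and 0.84 over the pachytene arrays. That sum ran from 48.0 to 77.6 in CPA and 53.6 to 118.0 in saline round spermatids, and from 83.3 to 196.0 in CPA and 70.4 to 285.4 in saline pachytene spermatocytes. Of 6 blood markers 3 were tested. miR-223-3p, of myeloid cells, was called higher in round spermatids, by 2.15 in saline rats and 1.96 in CPA rats. miR-142-3p, of white blood cells, was called higher by 0.76 in CPA rats, while its 0.53 in saline rats was not called. miR-150-5p went the other way, at -0.24 in saline and -0.40 in CPA rats, and was called in neither. miR-144-3p of red cells was detected on no array. miR-451-5p and miR-142-5p, the rest of the list, were each detected on 1 array or more but not on every array of any group, so neither was tested. The sum of the 6 blood markers ran from 153.0 to 213.0 in CPA and 160.3 to 222.3 in saline round spermatids. In pachytene spermatocytes it ran from 69.7 to 116.2 in CPA and 90.9 to 118.5 in saline rats. This blood sum went with the 5 miRNAs at r = 0.20. Of the 4 spermatogonial markers, miR-221-3p and miR-222-3p were lower in round spermatids of both treatments, miR-21-5p was lower in those of saline rats, and miR-146a-5p, also abundant in immune cells, was higher by 2.01 in saline rats and 1.62 in CPA rats. Their sum went with the 5 miRNAs at r = -0.11. Of the 3 tested Sertoli and gonadal markers, miR-132-3p was higher and miR-202-3p lower in round spermatids of either treatment, and miR-212-3p was not called. The sum of the 4 on the array stood at r = 0.10. That sum ran from 251.2 to 287.6 on spermatid arrays of slide 3 and from 475.5 to 590.1 on those of slides 1 and 2. The markers named here were picked after their values were seen, and the part of these lists in the result was not tested.

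Germ cell miRNAs were described on 2 lists, and the cell labels themselves were not tested. Of 6 miRNAs of meiotic and later germ cells 5 were tested. Of these, limma called 1 higher in round spermatids of saline rats, 2 higher in those of CPA rats and 0 lower in either. The summed signal of the 6 ran from 23029 to 35546 in CPA and 15718 to 30979 in saline round spermatids. In pachytene spermatocytes it ran from 15567 to 24233 in CPA and 16057 to 24043 in saline rats. Of 8 X-linked germ cell miRNAs on the array, all tested, 4 were lower in round spermatids of saline rats and 5 in those of CPA rats. The X-linked sum ran from 1524 to 1832 in CPA and 1452 to 1763 in saline round spermatids, and from 1871 to 2160 in CPA and 1904 to 2081 in saline pachytene spermatocytes. It went against that of the 5 miRNAs within groups, at r = -0.70 over 20 arrays, -0.60 over the pachytene arrays and -0.81 over the spermatid arrays. The sum of the meiotic list stood at -0.66 over the spermatid arrays and 0.0049 over the pachytene arrays. No marker of either list was undetected on all arrays.

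The 6 other arms of the same hairpins, the 5p strands, were near or below background. miR-24-2-5p was detected on 1 of 20 arrays, that of saline round spermatid rat 25, with 2 of its 400 spots over all arrays well above background, and miR-24-1-5p had 2 of 400 without a detection. miR-23a-5p, miR-23b-5p, miR-24-1-5p, miR-27a-5p and miR-27b-5p were detected on no array, and 0 of the 6 arms entered the test. The 5p arms of miR-24-1 and miR-24-2 differ in sequence, as the hairpins above show, and so would tell the clusters apart, but neither had a level that could be compared between groups.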

How the data were processed

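Each deposited scanner file gives the intensity of every spot, from which the background was already subtracted, with no scaling from array to array. Agilent Feature Extraction produced the files per the file headers, and the submitters' processing notes name version 11.5.1.1. The file of CPA round spermatid rat 14 gives its processed signal to 3 significant digits. The series' deposited value table holds the authors' log2 values, with column medians between -0.12 and 0.40. How they were normalized is not given in the sources used here, their scale was read from the values, and the table served as an alternative only.

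For each array the 75th percentile of the processed signal was taken over 2176 spots that stood well above background everywhere. Signals were scaled to make these percentiles equal, a floor of 12.17 was set, which is 3.61 after log2, and log2 was taken. Control and outlier spots were left out, the spots of a probe were averaged, and the brighter probe of a miRNA was used. The 217 miRNAs that every array of 1 group or more detected were fitted together with limma 3.58.1 in R 4.3.3, with a mean per group and 16 residual degrees of freedom. P-values were adjusted by the Benjamini-Hochberg method over all 217, with a threshold of 0.05. The fit was tested on simulated data. Paralog ratios were compared with exact permutation tests over arrays. Alternatives were other scalings, background correction, floor, filter, probes, slide, scan date and rat number as blocks, single slides, array weights, the deposited values and each array left out. Background correction with normexp used the median signal, since the files hold no mean signal.

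The 5 miRNAs, the marker lists and the rule for naming others were chosen with earlier results of these data known. Named besides the 5 are their other arms, any miRNA with the same seed (0 found), and the 5 tested miRNAs with the highest correlation with their mean, over all arrays and with group means off. Sequences and coordinates are those of RefSeq's tables for GRCr8.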

Additional observations from a re-analysis of the deposited data

How the results depend on the processing

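None of the 500 treatment values of the 5 miRNAs under 41 other settings was called by limma, with 0.354 as the lowest adjusted p (array weights), and values with no call have no firm direction. The value of miR-27a-3p between round spermatids and pachytene spermatocytes of saline rats turned to -0.0012 with the labelling spike-ins. Counts of miRNAs called between the cell types moved to 30 in saline and 39 in CPA rats with normexp (chosen after seeing the data), to 161 in saline rats with the spike-ins, to 73 in CPA rats without scaling, and the cause was not tested. They were 53 and 72 on slide 1, which has fewer arrays, and 22 and 22 in the deposited values, where 50 miRNAs were used. These were the 5 miRNAs and 45 of 49 others matched by exact name, kept for an r over 0.5 with the scanner values. CPA against saline in round spermatids gave 30 calls on slide 2, from 1 array of each treatment assumed to vary like the others, and 2 on slide 3, and the difference of CPA effects gave 27 on slide 2, none of them of the 5 miRNAs. The CPA effect on the miR-23 ratio in round spermatids was 0.077 on slide 2 and -0.30 on slide 3, and on the miR-27 ratio 0.28 on slide 2 and -0.34 on slide 3. In pachytene spermatocytes both turned sign between slides 1 and 2, with 0.088 and -0.14 for miR-23 and 0.14 and -0.28 for miR-27.

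With single arrays left out, the calls between cell types ranged from 95 to 113 in saline and 98 to 114 in CPA rats, and those of the treatment comparisons stayed at 0. The CPA effect on the miR-23 ratio ranged from -0.13 to 0.0055 in pachytene spermatocytes and from -0.13 to -0.025 in round spermatids, and that on the miR-27 ratio from -0.19 to 0.04 and from -0.035 to 0.14. With the rat number within a treatment as a random replicate block (consensus correlation 0.080), 0 miRNAs were called in the treatment comparisons and 105 and 114 between the cell types of saline and CPA rats. The deviations of arrays with the same number correlated at 0.07, 0.16 and -0.29 for saline rats 16, 25 and 28 and 0.12 for CPA rat 15. Among the spermatid arrays of the treatment, the best match had the same number for saline rat 25 and CPA rat 15. For saline rats 16 and 28 it did not. These values cannot settle whether equal numbers mean the same rat, and the number was not taken to pair samples.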
